A study of Homo sapiens with 5 samples.

Results

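The AP-1 and immediate early genes described here are a set of 10, measured in 5 RNA-seq libraries of SAS cells, a squamous carcinoma line from the tongue, with the chaperonin subunit gene CCT2 knocked down in 3 of the libraries. The 10 genes are FOS, FOSB, FOSL1, FOSL2, JUN, JUNB, JUND, EGR1, IER3 and DUSP1. They were chosen by name, found by symbol in both deposited expression tables and joined on the gene identifier, and all 10 were among the 15187 genes listed in both tables and among the 13123 genes that passed the low-count filter. There were 3 libraries of SAS cells carrying shRNA against CCT2 (shCCT2 1, 2 and 3) and 2 libraries of SAS cells carrying control shRNA (shCtrl 1 and 2). The first table holds shCCT2 1, shCCT2 2 and shCtrl 1, and the second holds shCCT2 3 and shCtrl 2, so shCCT2 1 and shCCT2 2 share 1 control library. The labels give the shRNA as the only manipulation and do not say whether 1 hairpin or several were used, how long after its delivery RNA was taken, whether serum was withheld, or whether the libraries came from separate cultures. The p-values rest on the spread between these 5 libraries alone, and that spread may be technical.

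AP-1 is a dimer of basic leucine zipper proteins, in which a FOS family protein pairs with a JUN family protein, or JUN proteins pair with each other, on short DNA elements read with the core TGACTCA. Growth factors, serum and stress switch on the genes for FOS, FOSB, EGR1, IER3 and DUSP1 within minutes through MAP kinases and without new protein synthesis, and most of these mRNAs decay quickly. In squamous epithelium and its tumours, FOSL1, FOSL2 and the JUN proteins are known regulators of migration, proliferation and differentiation.

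Library totals lay between 17555763 and 18156592 estimated counts for shCCT2 and were 17976483 and 16913585 for shCtrl 1 and shCtrl 2. CCT2, the targeted gene, was at 296, 272 and 260.2 CPM (counts scaled to a common library total, here and below with edgeR's TMM factors) in shCCT2 1, 2 and 3, against 629.9 and 642 CPM in shCtrl 1 and 2, and every knockdown library was below both controls. Its fitted log2 change was -1.22 ± 0.18 (SE), with an adjusted p of 0.542 in edgeR's quasi-likelihood test and of 3.9e-05 in DESeq2. The 10 squamous epithelial markers were all listed, with summed levels of 3241 to 4632 CPM in shCCT2 and of 5507 and 1841 CPM in shCtrl 1 and 2. The 2 tables differ widely for some genes outside the set: CDH1, a squamous marker picked after its values were seen, was at 185, 212.5 and 24.9 CPM in shCCT2 1, 2 and 3, against 251.5 and 10.6 CPM in shCtrl 1 and 2. What separates the tables is not given in the labels, so each shCCT2 library is set against the shCtrl library it was tabulated with.

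No member passed the test, and the members had mixed signs. In edgeR's quasi-likelihood test with the table as a term, 0 of 10 members had a Benjamini-Hochberg adjusted p under 0.05, where the same test called 0 of all 13123 genes (0.0%) in either direction. At an unadjusted p under 0.05 the count was 0 of 10 members, against 7.41% of all genes (2.83% higher and 4.57% lower). DESeq2, which gave FOSB no adjusted p, called 0 members and 0.0991% of all genes (0.0152% higher and 0.0838% lower). DESeq2's unadjusted p was under 0.05 for 1 member, FOSL1, against 10.1% of all genes. The fitted log2 change was above 0 for 3 members and below 0 for 7, with a median of -0.16 over the members and -0.02 over all genes. Only FOSL1 was higher in all 3 knockdown libraries than in the control of its table, a pattern of 20.2% of all genes, and only FOSB was lower in all 3, a pattern of 21.4% of all genes. The other 8 members changed sign between libraries. In bulk libraries such as these, fewer cells making a transcript and less transcript per cell cannot be told apart.

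**Figure D1:**
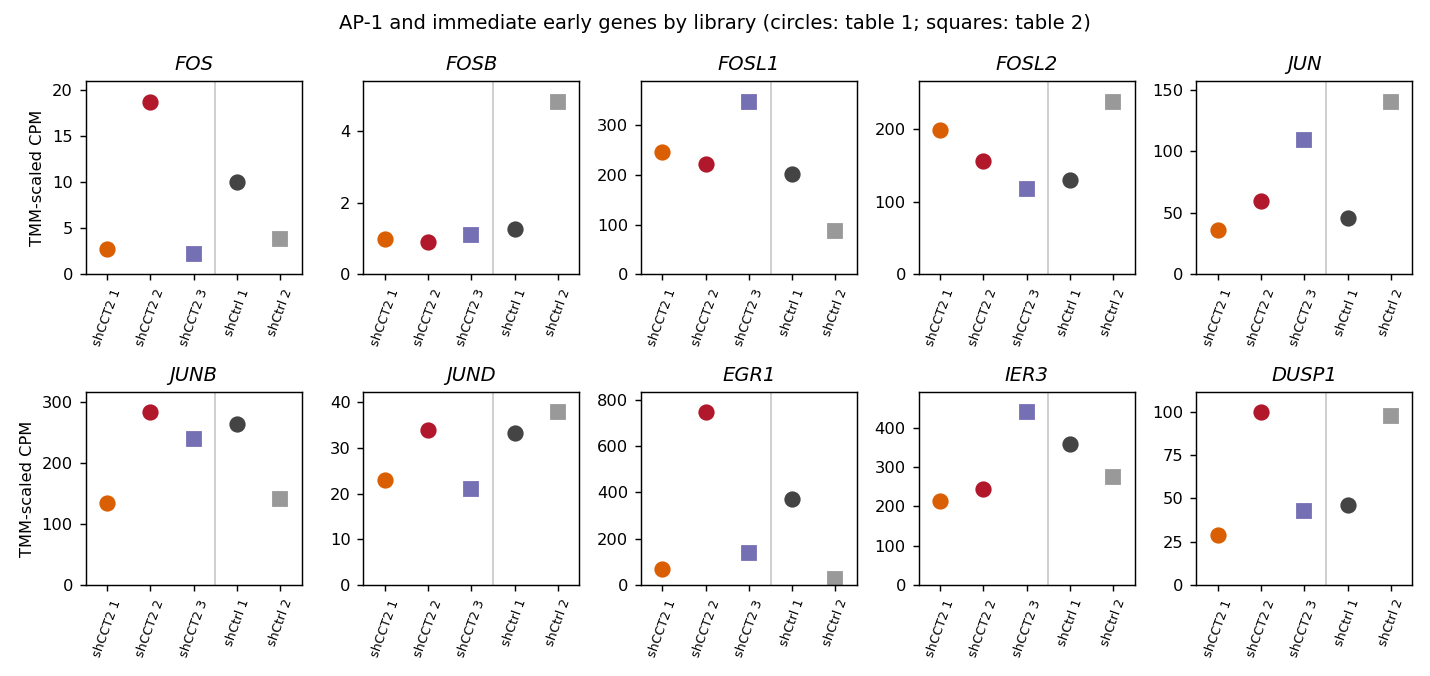
Level of each of the 10 members in every library, in TMM-scaled CPM on a linear axis that starts at 0, with shCCT2 libraries left of shCtrl libraries and the 2 tables marked by symbol. FOSL1 and FOSB are the members whose 3 knockdown libraries lie on one side of both controls; EGR1 spans 26.4 to 745 CPM.

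FOSL1, which encodes FRA-1, a FOS family protein without the transactivation domain of FOS and a driver of motility in squamous cells, was at 245, 221 and 347 CPM in shCCT2 1, 2 and 3, against 202 and 86.4 CPM in shCtrl 1 and 2. All 3 knockdown libraries lay above both controls, which held for 7.97% of all genes. The distance was small in the first table and large in the second: FOSL1 in shCCT2 1 stood 0.28 log2 units above shCtrl 1 (95% counting interval 0.22 to 0.35), and in shCCT2 2 it stood 0.13 above it (0.07 to 0.20). In shCCT2 3 it was 4.02 times its level in shCtrl 2 (log2 interval 1.93 to 2.09). These exact binomial intervals, here and below, cover counting error only. The fitted log2 change was 0.93 ± 0.40 (SE), with an adjusted p of 0.542 in edgeR's quasi-likelihood test and of 0.400 in DESeq2. Without shCCT2 3 the fitted FOSL1 change was 0.21, and without shCtrl 1 it was 2.04. Here and below, a fit without shCtrl 1 sets shCCT2 3 against shCtrl 2 alone.

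FOSL2, which encodes FRA-2, the closest relative of FRA-1, was at 199, 156 and 117 CPM in shCCT2 1, 2 and 3, against 130.5 and 238 CPM in shCtrl 1 and 2. The 2 tables differed in direction: FOSL2 was 0.61 and 0.25 log2 units higher in shCCT2 1 and shCCT2 2 than in shCtrl 1, and 1.02 log2 units lower in shCCT2 3 than in shCtrl 2. The groups overlapped, and the fitted log2 change was -0.21 ± 0.37 (SE), with an adjusted p of 0.810 in edgeR's quasi-likelihood test. Without shCCT2 3 or without shCtrl 2 it turned to 0.44.

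FOS, the founding immediate early gene of the family, was at 2.71, 18.7 and 2.24 CPM in shCCT2 1, 2 and 3, against 10.03 and 3.87 CPM in shCtrl 1 and 2. The highest value and the 2 lowest values were all in the knockdown group, so the groups overlapped. FOS stood at -1.71 log2 units from shCtrl 1 in shCCT2 1 (-2.39 to -1.41), at 0.87 in shCCT2 2 (0.63 to 1.17) and at -0.67 from shCtrl 2 in shCCT2 3 (-1.38 to -0.22). The fitted change was -0.27 ± 0.79 (SE), with an adjusted p of 0.893 in edgeR's quasi-likelihood test. It turned to 0.10 without shCCT2 1 and to 0.09 without shCCT2 3 or without shCtrl 2.

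FOSB, the remaining FOS family gene, known for a truncated splice form that lasts in stimulated neurons, was the scarcest member, with 17, 15 and 20 counts in shCCT2 1, 2 and 3, against 22 and 91 counts in shCtrl 1 and 2. That is 1.001, 0.895 and 1.09 CPM in shCCT2 1, 2 and 3, against 1.27 and 4.83 CPM in shCtrl 1 and 2. All 3 knockdown values were below both controls, which held for 8.28% of all genes, but the counting intervals of shCCT2 1 (-1.35 to 0.64) and shCCT2 2 (-1.55 to 0.51) against shCtrl 1 include 0. In shCCT2 3 FOSB was 1.74 log2 units lower than in shCtrl 2 (-2.92 to -1.43), and 0.69 lower with a pseudocount of 5 in place of 0.5 CPM. The fitted log2 change was -1.21 ± 0.59 (SE), with an adjusted p of 0.542 in edgeR's quasi-likelihood test; without shCtrl 2 it was -0.42 and without shCtrl 1 it was -2.11. FOSB overlaps ERCC1 on the opposite strand, which was at 44.1, 40.9 and 63.9 CPM in shCCT2 1, 2 and 3, against 42.8 and 52.1 CPM in shCtrl 1 and 2. The labels do not say whether reads were assigned by strand, and the part of ERCC1 reads in the FOSB value was not tested. FOSL2, IER3 and DUSP1 also overlap antisense transcripts, which were not analysed here.

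Within the FOS family, levels were compared between genes per kilobase of the longest annotated transcript. FOSL1 made up 82.5%, 80.5% and 91.7% of the summed FOS family level per kilobase in shCCT2 1, 2 and 3, against 83.2% and 57.3% in shCtrl 1 and 2. FOSL2 held 16.7%, 14.1% and 7.70% in shCCT2 1, 2 and 3, against 13.4% and 39.3% in shCtrl 1 and 2. Per kilobase, FOSL1 was thus the most abundant family member in all 5 libraries, and FOSL2 came second in each. In shCtrl 2 this order rests on the annotated lengths, 1669 bases for FOSL1 and 6708 for FOSL2. Before scaling by length, FOSL2 was the higher there, at 238 against 86.4 CPM. Which transcripts the cells express was not tested. The level per kilobase of FOSL1 was 4.94, 5.72 and 11.9 times that of FOSL2 in shCCT2 1, 2 and 3, against 6.21 and 1.46 times in shCtrl 1 and 2. In this ratio shCtrl 2 was the lowest library and shCCT2 3 the highest, and both are in the second table. shCtrl 2 is also the control against which FOSL1 is highest and FOSL2 lowest. FOS held at most 5.26% of the family level, in shCCT2 2.

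**Figure D2:**
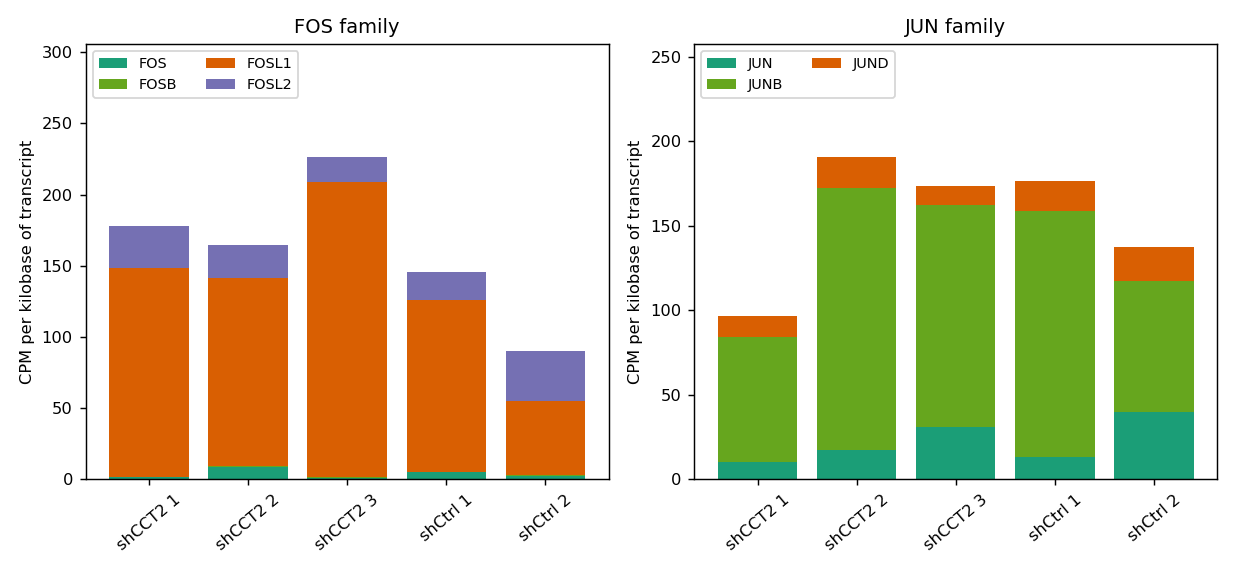
Stacked levels of the FOS family (left) and the JUN family (right) in every library, in CPM per kilobase of transcript, with shCCT2 libraries left of shCtrl libraries and 1 colour per gene. FOSL1 holds 80.5% to 91.7% of the FOS family level in shCCT2 and 83.2% and 57.3% in shCtrl 1 and 2; JUNB leads the JUN family in all 5 libraries.

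JUN, the strongest activator of the JUN family, was at 36.1, 60.0 and 109 CPM in shCCT2 1, 2 and 3, against 45.8 and 140.3 CPM in shCtrl 1 and 2. The levels sorted by table, with both second-table libraries above the 3 first-table libraries, and the groups overlapped. Its fitted log2 change was -0.12 ± 0.27 (SE), with an adjusted p of 0.856 in edgeR's quasi-likelihood test, and it turned to 0.02 without shCCT2 1 and to 0.07 without shCCT2 3 or without shCtrl 2.

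JUNB, a JUN family protein that can oppose JUN on shared targets, was at 134, 283 and 239 CPM in shCCT2 1, 2 and 3, against 265 and 141 CPM in shCtrl 1 and 2. It was 0.98 log2 units lower in shCCT2 1 than in shCtrl 1, 0.10 higher in shCCT2 2, and 0.76 higher in shCCT2 3 than in shCtrl 2. The fitted change was 0.11 ± 0.39 (SE), with an adjusted p of 0.911 in edgeR's quasi-likelihood test; it turned to -0.10 without shCCT2 2, to -0.34 without shCCT2 3 and to -0.35 without shCtrl 2. JUNB overlaps HOOK2 on the opposite strand, which was at 20.9, 24.1 and 15.3 CPM in shCCT2 1, 2 and 3, against 23.6 and 19.2 CPM in shCtrl 1 and 2, and its part in the JUNB value was not tested.

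JUND, the JUN family gene that is least tied to stimulation, was at 23.0, 33.9 and 20.96 CPM in shCCT2 1, 2 and 3, against 33.2 and 37.8 CPM in shCtrl 1 and 2. JUND was below both controls in shCCT2 1 and shCCT2 3, and between them in shCCT2 2, where it was level with shCtrl 1 (log2 change 0.03, -0.14 to 0.20). The fitted log2 change was -0.50 ± 0.28 (SE), with an adjusted p of 0.542 in edgeR's quasi-likelihood test. With each library left out in turn it ran from -0.82 to -0.22. These fits are not separate checks, since those without shCCT2 3 and without shCtrl 2 repeat the first-table contrast. Per kilobase, JUNB held 76.6%, 81.6% and 75.7% of the JUN family level in shCCT2 1, 2 and 3, against 82.6% and 56.4% in shCtrl 1 and 2. JUN held 10.6%, 8.88% and 17.8% in shCCT2 1, 2 and 3, against 7.33% and 28.9% in shCtrl 1 and 2, so shCtrl 2 again had the most even split.

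The promoters of 3 of these genes and of EGR1 are shown because they hold elements that serum response factor, CREB or AP-1 proteins are known to read. Promoter sequence was matched for 8 of the 10 members in RefSeq's annotation of GRCh38.p14, and the 250 bases before each start site were searched on both strands for TGACTCA, the core AP-1 element, for TGACGTCA, the cyclic AMP response element, and for TGACATCA, a variant of it that JUN is known to use in its own promoter. They were also searched for the CArG box, the site of serum response factor, and for GCGTGGGCG and GCGGGGGCG, sites of EGR1. FOSL1 and IER3 had no matched promoter and were not searched. None of the 8 windows searched held TGACTCA (4.2% of 35116 promoters do), GCGTGGGCG (0.72%) or GCGGGGGCG (4.72%). EGR1 had 2 CArG boxes, at bases -105 to -96 and -83 to -74 from its start, and 1.16% of all promoters had at least 1. JUND (bases -200 to -193) and DUSP1 (bases -125 to -118) each had 1 TGACGTCA, found in 1.65% of all promoters, and JUN (bases -67 to -60) had 1 TGACATCA, found in 2.37%. The stretches run 5′ to 3′ on the gene's own strand, with the element in capitals, from chr5:138465354-138465425 (plus strand) for EGR1, chr1:58784087-58784134 (minus) for JUN, chr19:18281795-18281842 (minus) for JUND and chr5:172771293-172771340 (minus) for DUSP1. A match describes the letters only, and no binding was measured. Bases further upstream than 250 were not searched, so a gene without a match, FOS among them, may hold an element there.
EGR1: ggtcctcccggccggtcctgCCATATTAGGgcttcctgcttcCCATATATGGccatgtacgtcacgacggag
JUN: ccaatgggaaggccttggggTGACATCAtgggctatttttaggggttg
JUND: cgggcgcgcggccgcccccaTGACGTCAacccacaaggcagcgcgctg
DUSP1: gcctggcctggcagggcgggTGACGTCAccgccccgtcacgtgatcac

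EGR1, a zinc finger factor induced beside FOS by serum response factor, was at 69.0, 745 and 137 CPM in shCCT2 1, 2 and 3, against 369 and 26.4 CPM in shCtrl 1 and 2. Both the highest and the second lowest value belong to the knockdown group, and the lowest is shCtrl 2. EGR1 was 2.41 log2 units lower in shCCT2 1 than in shCtrl 1 (-2.51 to -2.33), 1.01 higher in shCCT2 2 than in shCtrl 1 (0.97 to 1.06), and 2.35 higher in shCCT2 3 than in shCtrl 2 (2.23 to 2.51). Each of these counting intervals excludes 0, while the fitted log2 change of 1.01 had an SE of 0.97, with an adjusted p of 0.654 in edgeR's quasi-likelihood test. Without shCCT2 2 the fitted EGR1 change was -0.03, and without shCtrl 1 it was 2.40.

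IER3, an immediate early gene that restrains apoptosis, was at 215, 245 and 439 CPM in shCCT2 1, 2 and 3, against 358 and 275 CPM in shCtrl 1 and 2. It was 0.74 and 0.55 log2 units lower in shCCT2 1 and shCCT2 2 than in shCtrl 1, and 0.67 log2 units higher in shCCT2 3 than in shCtrl 2, the reverse of the FOSL2 pattern. Opposite signs of this kind between the tables, FOSL2 and IER3 among the members, were found in 22.6% of all genes. The fitted IER3 change was -0.10 ± 0.31 (SE), with an adjusted p of 0.900 in edgeR's quasi-likelihood test; it turned to 0.07 without shCCT2 1 and to 0.70 without shCtrl 1.

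DUSP1, the phosphatase that switches off p38, JNK and ERK and so closes the immediate early response, was at 28.6, 99.5 and 42.5 CPM in shCCT2 1, 2 and 3, against 46.1 and 97.3 CPM in shCtrl 1 and 2. It was 0.68 log2 units lower in shCCT2 1 than in shCtrl 1 (-0.85 to -0.52), 1.10 higher in shCCT2 2 (0.99 to 1.23), and 1.19 lower in shCCT2 3 than in shCtrl 2 (-1.32 to -1.07). The fitted change was -0.27 ± 0.63 (SE), with an adjusted p of 0.861 in edgeR's quasi-likelihood test, and it turned to 0.48 without shCCT2 3 or without shCtrl 2.

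**Figure D3:**
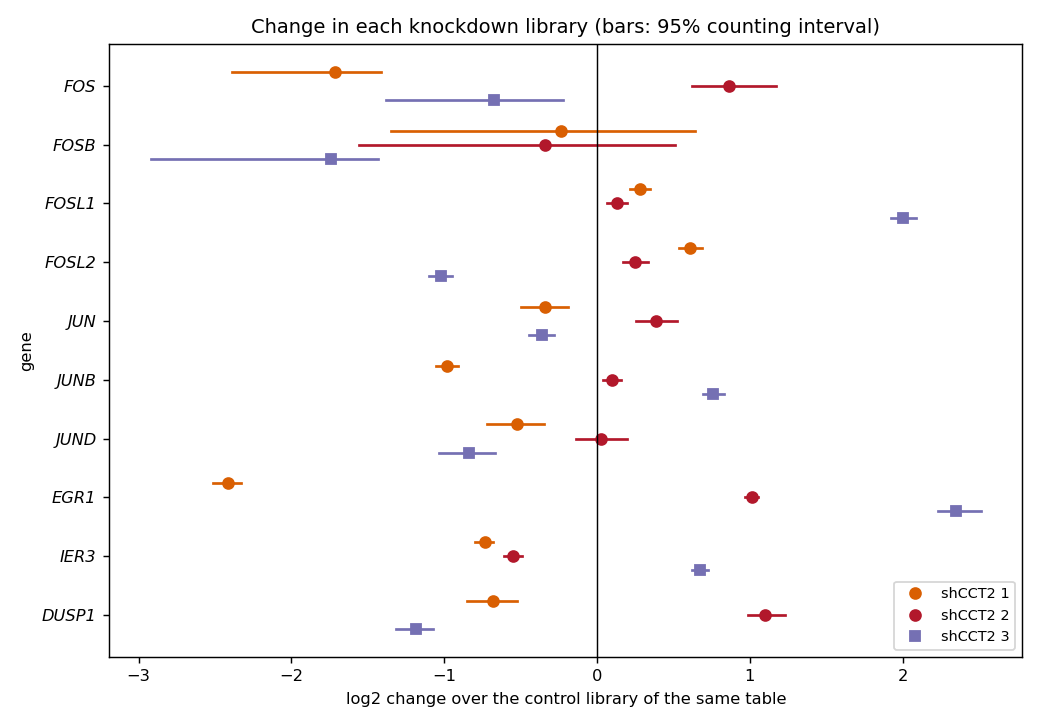
Log2 change of each member in each shCCT2 library over the shCtrl library of its own table (TMM-scaled CPM with 0.5 added). Bars are 95% exact binomial intervals of the scaled count ratio without the 0.5, and they cover counting error only. FOSL1 is above 0 and FOSB below 0 in all 3 libraries, and EGR1 runs from -2.41 in shCCT2 1 to 2.35 in shCCT2 3.

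Counted by library, the members at least 2-fold from the control of their table were 0 higher and 2 lower in shCCT2 1, FOS and EGR1, against 0.671% of all genes higher and 3.28% lower. In shCCT2 2 they were 2 higher, EGR1 and DUSP1, and 0 lower, against 0.472% and 0.61% of all genes. In shCCT2 3 they were 2 higher, FOSL1 and EGR1, and 3 lower, FOSB, FOSL2 and DUSP1, against 8.37% and 13.8% of all genes. The median log2 change of the 10 members was -0.60 in shCCT2 1, 0.19 in shCCT2 2 and -0.52 in shCCT2 3, where the median of all genes was -0.02 in shCCT2 3 and within 0.001 of 0 in the others. EGR1 is the only member in all 3 of these sets, and its direction was not the same in them.

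The 2 knockdown libraries of the first table share a control, so they were also set directly against each other, with shCCT2 2 over shCCT2 1. Of the 10 members, 7 were higher in shCCT2 2, against 51.0% of all genes; 4 of them, EGR1, FOS, DUSP1 and JUNB, were at least 2-fold higher, against 2.42% of all genes, and none was at least 2-fold lower, against 0.686%. EGR1 was 10.8 times as high in shCCT2 2 as in shCCT2 1, a log2 ratio of 3.42 (3.35 to 3.52), and ranked 1 among the 9633 genes whose mean reached 10 CPM. FOS was 6.89 times as high, at a log2 ratio of 2.58 (2.34 to 3.26) and a mean under 10 CPM, DUSP1 was 3.48 times as high and ranked 24, and JUNB was 2.11 times as high and ranked 101. JUN ranked 314, JUND 561 and IER3 2279, and FOSL1 and FOSL2, at log2 ratios of -0.15 and -0.36, ranked 6554 and 8615. These 2 libraries have the same label, and a ratio between single libraries has no replicate check.

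**Figure D4:**
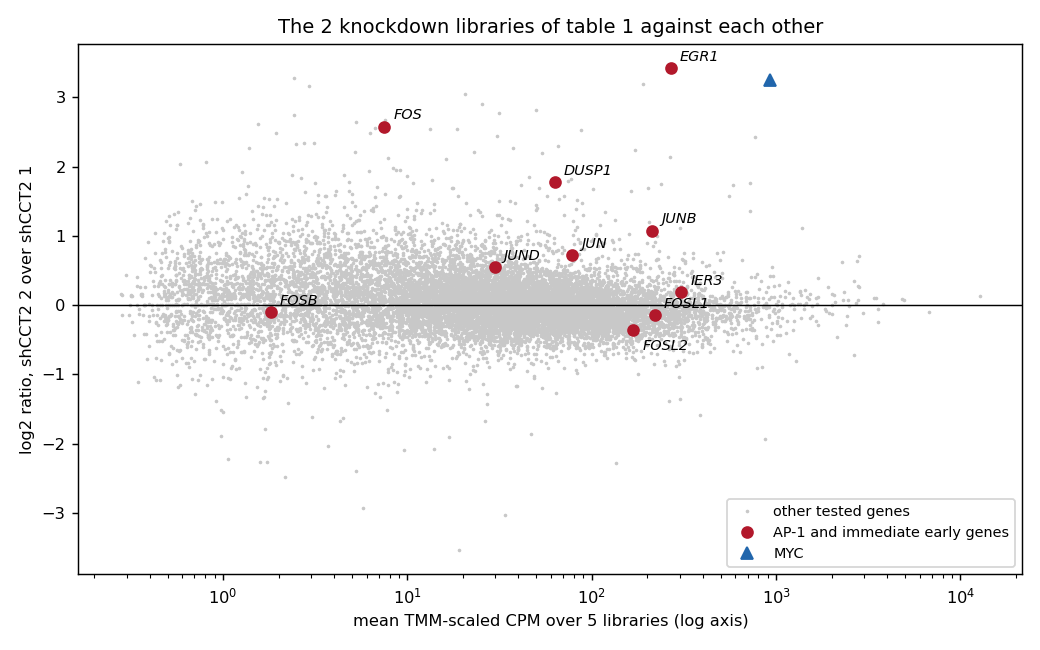
Log2 ratio of shCCT2 2 over shCCT2 1 (y axis) against mean TMM-scaled CPM (log x axis) for all genes in grey, with the members named in red and MYC as a triangle. EGR1 is the highest of the 9633 genes whose mean reached 10 CPM, at 3.42, while FOSL1 and FOSL2 lie at -0.15 and -0.36.

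Among 4 leukocyte markers in both tables, PTPRC and CD14 were highest in shCCT2 2 and CD68 and LYZ were not. PTPRC, the leukocyte surface phosphatase CD45, was at 0.648, 6.51 and 0.0546 CPM in shCCT2 1, 2 and 3, against 0.0577 and 0.424 CPM in shCtrl 1 and 2, and CD14 was at 2.94, 15.5 and 0.328 CPM in shCCT2 1, 2 and 3, against 6.23 and 1.06 CPM in shCtrl 1 and 2. CD68, a macrophage marker that carries most of the sum, was at 72.7, 98.3 and 43.6 CPM in shCCT2 1, 2 and 3, against 112 and 60.1 CPM in shCtrl 1 and 2, and LYZ, lysozyme, was at 1.65, 0.537 and 0.164 CPM in shCCT2 1, 2 and 3, against 0.404 and 0.318 CPM in shCtrl 1 and 2. These 4, of 6 leukocyte markers sought, had summed levels of 77.9, 121 and 44.2 CPM in shCCT2 1, 2 and 3, against 118 and 61.9 CPM in shCtrl 1 and 2. CD3E was listed in the first table alone, at 0 in shCCT2 2. Of 7 fibroblast markers 3 were in both tables, with sums of 3.004 to 4.86 CPM in shCCT2 and of 4.498 and 12.3 CPM in shCtrl 1 and 2. Of 6 endothelial markers 5 were in both, with sums of 2.08 to 3.46 CPM in shCCT2 and of 4.44 and 7.48 CPM in shCtrl 1 and 2. The share of coverage in the last 20% of the transcript was 13.8%, 15.3% and 14.1% in shCCT2 1, 2 and 3, against 16.7% and 15.2% in shCtrl 1 and 2. The part of these values in the EGR1, FOS and DUSP1 levels was not tested.

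The 2 control libraries also lay far apart for these genes. In shCtrl 2 against shCtrl 1, 6 of 10 members differed at least 2-fold, against 29.7% of all genes, with FOSB, JUN and DUSP1 higher (17.3% of all genes) and FOS, FOSL1 and EGR1 lower (12.4%) in shCtrl 2. EGR1 was the widest, at -3.78 log2 units, beside 1.60 for JUN and -1.22 for FOSL1. These 2 libraries are in different tables, so table and library cannot be told apart here.

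Whether the change after knockdown differed between the tables was tested with the interaction of shRNA and table, which leaves 1 residual degree of freedom. For each gene, that degree of freedom is the difference between shCCT2 1 and shCCT2 2. Neither control and nothing in the second table is replicated in this fit. The interaction is the log2 change of shCCT2 3 over shCtrl 2 minus that of shCCT2 1 and 2 over shCtrl 1. edgeR's quasi-likelihood test gave an adjusted p under 0.05 for 0 members and 0.0% of all genes, and an unadjusted p under 0.05 for 3 members, against 17.2% of all genes. These were FOSL1, at 1.80 (adjusted p = 0.125), FOSL2, at -1.46 (adjusted p = 0.164), and IER3, at 1.31 (adjusted p = 0.159). DESeq2 called the same 3 members, with adjusted p of 0.00118 for FOSL1, 0.0325 for FOSL2 and 0.0349 for IER3, and 2.0% of all genes. Without TMM scaling edgeR called FOSL1 and FOSL2, with adjusted p of 0.0136 and 0.0268, and 4.38% of all genes. EGR1, the member with the widest spread, had an interaction of 2.23 with an adjusted p of 0.539 in edgeR.

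**Figure D5:**
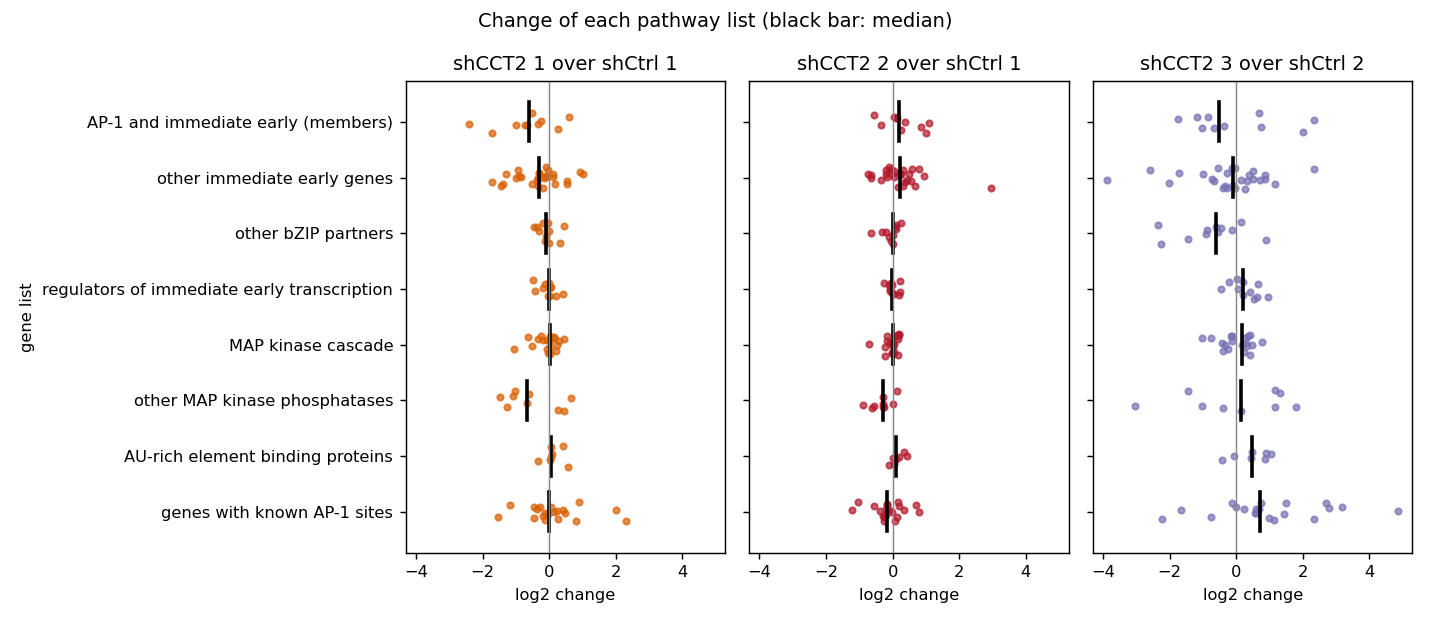
Log2 change of the members and of the other pathway lists in shCCT2 over shCtrl, for each knockdown library against the control of its own table, with a black bar at the median of each list. The members' medians are -0.60, 0.19 and -0.52 in shCCT2 1, 2 and 3.

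Other genes of the pathway were described by list. Of all 13123 genes, 2.83% were higher and 4.57% lower at an unadjusted p under 0.05 in edgeR. The fitted log2 change was above 0 for 6370 of all genes and below 0 for 6751, with a median of -0.02. Of 27 other immediate early genes, all tested, 13 had a fitted log2 change above 0 and 14 below, with a median of -0.03, and 0 passed edgeR's adjusted threshold, 1 in each direction had an unadjusted p under 0.05, and DESeq2 called 0. NR4A1, an orphan nuclear receptor induced with EGR1, was at 5.13, 8.24 and 5.79 CPM in shCCT2 1, 2 and 3, against 14.2 and 20.2 CPM in shCtrl 1 and 2. NR4A1 was below both controls in every knockdown library, a pattern of 8.28% of all genes. Its fitted log2 change was -1.40 ± 0.35 (SE), with an adjusted p of 0.542 in edgeR's quasi-likelihood test. F3, tissue factor, was at 2207, 2905 and 1143 CPM in shCCT2 1, 2 and 3, against 1935 and 227 CPM in shCtrl 1 and 2. KLF10, a Kruppel-like factor that responds to TGF-beta, was at 119.5, 174.5 and 169.5 CPM in shCCT2 1, 2 and 3, against 123 and 74.9 CPM in shCtrl 1 and 2. Both F3 and KLF10 overlapped between the groups. Against the control of its own table, F3 was higher in all 3 libraries, by 0.19, 0.59 and 2.33 log2 units, a pattern of 20.2% of all genes. Its fitted log2 change was 1.17 ± 0.45 (SE), with an adjusted p of 0.542 in edgeR's quasi-likelihood test. KLF10 had mixed signs.

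In shCCT2 2 over shCCT2 1, 22 of these 27 genes were higher and 6 were at least 2-fold higher, with 0 at least 2-fold lower, beside 51.0%, 2.42% and 0.686% of all genes. MYC, picked after its values were seen, was at 339, 3230 and 302 CPM in shCCT2 1, 2 and 3, against 415 and 362 CPM in shCtrl 1 and 2, and ranked 2 behind EGR1 in that ratio. EGR3, a relative of EGR1 picked in the same way, was at 3.004, 21.9 and 0.873 CPM in shCCT2 1, 2 and 3, against 11.1 and 0.742 CPM in shCtrl 1 and 2. ZFP36, which encodes the mRNA decay factor tristetraprolin, was likewise picked, at 14.7, 50.3 and 39.1 CPM in shCCT2 1, 2 and 3, against 36.9 and 65.2 CPM in shCtrl 1 and 2. MYC was thus high in shCCT2 2 alone, while EGR3 was high in shCCT2 2 and, less so, in shCtrl 1, the order that EGR1 and FOS also show in the first table.

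Of 14 other bZIP partners of AP-1, 11 were tested, and 2 had a fitted change above 0 and 9 below, with a median of -0.43. None had an unadjusted p under 0.05 in edgeR or an adjusted p under 0.05 in edgeR or DESeq2. MAFF, a small MAF protein, was at 33.0, 34.7 and 33.0 CPM in shCCT2 1, 2 and 3, against 36.1 and 62.2 CPM in shCtrl 1 and 2. MAFK, another small MAF, was at 48.0, 54.6 and 59.0 CPM in shCCT2 1, 2 and 3, against 54.3 and 109 CPM in shCtrl 1 and 2. CREB5, a partner of JUN, was at 1.83, 0.597 and 12.8 CPM in shCCT2 1, 2 and 3, against 1.21 and 67.3 CPM in shCtrl 1 and 2. All 3 genes were highest in shCtrl 2, and without shCCT2 3 the median of the list was -0.08.

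Upstream of the members, 11 regulators of immediate early transcription had a median fitted change of 0.08 with 8 above 0, and 19 MAP kinase cascade genes had a median of 0.03 with 10 above 0, which turned to -0.03 without TMM scaling. None of either list passed edgeR's adjusted threshold or DESeq2's; at an unadjusted p under 0.05 in edgeR there were 1 regulator, higher, and 1 cascade gene, lower. RPS6KA4, the nuclear kinase MSK2, was at 119, 104 and 88.6 CPM in shCCT2 1, 2 and 3, against 88.6 and 45.6 CPM in shCtrl 1 and 2. CREB1, a factor that binds TGACGTCA, was at 81.7, 91.9 and 69.2 CPM in shCCT2 1, 2 and 3, against 79.9 and 44.2 CPM in shCtrl 1 and 2. MRTFB, a cofactor of serum response factor, was at 24.5, 30.4 and 32.2 CPM in shCCT2 1, 2 and 3, against 32.7 and 37.7 CPM in shCtrl 1 and 2. MAP3K5, a stress kinase upstream of JNK and p38, was at 1.94, 2.63 and 23.4 CPM in shCCT2 1, 2 and 3, against 4.61 and 31.9 CPM in shCtrl 1 and 2. Its level followed the table, and it was below the control of its own table in all 3 knockdown libraries, a pattern of 21.4% of all genes. MAPK3, which encodes ERK1, was at 63.9, 71.3 and 40.7 CPM in shCCT2 1, 2 and 3, against 72.1 and 83.4 CPM in shCtrl 1 and 2. All knockdown libraries were below both controls, a pattern of 8.28% of all genes. In shCCT2 2, though, MAPK3 was level with shCtrl 1 (log2 change -0.015, counting interval -0.13 to 0.10).

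Among genes that end the response, 9 other MAP kinase phosphatases had 3 fitted changes above 0 and 6 below, with a median of -0.14, and 2, both lower, had an unadjusted p under 0.05 in edgeR. DUSP16, a JNK phosphatase, was at 9.25, 11.5 and 15.2 CPM in shCCT2 1, 2 and 3, against 14.2 and 42.6 CPM in shCtrl 1 and 2. DUSP5, a nuclear ERK phosphatase, was at 105, 185 and 84.9 CPM in shCCT2 1, 2 and 3, against 223 and 113 CPM in shCtrl 1 and 2. DUSP7, a cytoplasmic ERK phosphatase, was at 129.6, 94.8 and 149 CPM in shCCT2 1, 2 and 3, against 94.7 and 42.8 CPM in shCtrl 1 and 2. DUSP16 and DUSP5 were thus below the control of the same table in all 3, a pattern of 21.4% of all genes. DUSP7 was above that control in shCCT2 1 and shCCT2 3 and level with it in shCCT2 2. The median of this list was 1.21 with shCtrl 1 left out, a fit that sets shCCT2 3 against shCtrl 2 alone. The list's median single-library log2 change in shCCT2 3 was 0.15, with 4 genes at least 2-fold higher and 3 at least 2-fold lower. The 0.15 is the value of DUSP2, a gene of this list with 1 count in shCCT2 3 and 0 in shCtrl 2. That value rests on the 0.5 CPM added. Of 7 proteins that bind AU-rich elements, which lie in short-lived mRNAs such as that of FOS, 6 had a fitted change above 0, with a median of 0.21 and 1 unadjusted p under 0.05 in edgeR. HNRNPD, the decay factor AUF1, was at 499, 384 and 282 CPM in shCCT2 1, 2 and 3, against 338 and 153 CPM in shCtrl 1 and 2. KHSRP, another decay factor, was at 329, 267 and 346 CPM in shCCT2 1, 2 and 3, against 248 and 187 CPM in shCtrl 1 and 2. It was above both controls in every knockdown library, a pattern of 7.97% of all genes. ZFP36L1, a relative of tristetraprolin, was at 71.0, 114 and 181 CPM in shCCT2 1, 2 and 3, against 89.1 and 86.2 CPM in shCtrl 1 and 2, and was the lowest of all in shCCT2 1. No gene of these 2 lists passed the adjusted threshold in edgeR or DESeq2.

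Of 21 genes known to carry AP-1 sites, 20 were tested, and 15 had a fitted change above 0 and 5 below, with a median of 0.61. None passed the adjusted threshold in edgeR or DESeq2. At an unadjusted p under 0.05 in edgeR there were 3 higher and 2 lower, against 2.83% and 4.57% of all genes. Of the 3 higher, MMP10 had 1, 1 and 0 counts in shCCT2 1, shCCT2 2 and shCtrl 1, and SPRR1B had 13, 6 and 3. The list's fitted median was smaller with at least 10 counts required in every library. The list's median log2 change was 0.01, -0.17 and 0.72 in shCCT2 1, 2 and 3, and its fitted median was -0.04 without shCCT2 3 and 0.06 without shCtrl 2. CCND1, cyclin D1, was at 497.5, 490.3 and 434 CPM in shCCT2 1, 2 and 3, against 284 and 295 CPM in shCtrl 1 and 2. CCND1 was above both controls in every knockdown library, a pattern of 7.97% of all genes. Its fitted log2 change was 0.69 ± 0.19 (SE), with an adjusted p of 0.542 in edgeR's quasi-likelihood test. CXCL8, the neutrophil chemokine interleukin 8, was at 16.2, 18.5 and 183 CPM in shCCT2 1, 2 and 3, against 22.4 and 573 CPM in shCtrl 1 and 2. It was lower than the control of its table in all 3, a pattern of 21.4% of all genes. FGFBP1, a secreted carrier of fibroblast growth factors, was at 39.2, 68.4 and 6.33 CPM in shCCT2 1, 2 and 3, against 89.3 and 11.1 CPM in shCtrl 1 and 2, also lower in all 3.

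For the 2 members with the widest fitted change and a mean from 10 CPM up, the genes with the most similar 3 log2 changes were sought among 9625 genes by Euclidean distance. Nearest to FOSL1 was NCAPH2, a condensin subunit, at a distance of 0.09 log2 units. NCAPH2 was at 65.98, 60.6 and 160.3 CPM in shCCT2 1, 2 and 3, against 54.3 and 37.3 CPM in shCtrl 1 and 2. Nearest to EGR1 were SCEL, which encodes sciellin of the cornified envelope, at 1.18 and IGFBP3, a carrier of insulin-like growth factors, at 1.21, so EGR1 had no close neighbour. IGFBP3 was at 398, 2140.0 and 143 CPM in shCCT2 1, 2 and 3, against 1122 and 48.0 CPM in shCtrl 1 and 2, and like EGR1 it was highest in shCCT2 2 and lowest in shCtrl 2.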

How the data were processed

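Gene-level values were deposited by the authors as 2 tables of read counts, per the file headers. Since 86.2% to 87.9% of the values in a library were whole numbers, the deposited unit was read to be an expected count (estimated count). All 50 values of the members were whole. The authors also deposited transcript coverage as a signal by relative position, per the file headers, of which the first and last 20% were read. Per the labels, libraries were made from oligo(dT)-selected mRNA and read on an MGI instrument. STAR 1.5.1, HTSeq and a mouse build, mm10, are listed in the submitters' processing notes, while the gene identifiers carry a human taxon prefix, so the build, annotation and strand behind the counts are not given in the sources used here.

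Genes were matched across the tables by identifier, with 763 and 1032 genes left out as listed in 1 table alone. Counts were rounded and tested with edgeR 4.0.16 in R 4.3.3 (quasi-likelihood, TMM scaling, low-count filter, table as a term, 2 residual degrees of freedom, common biological coefficient of variation 0.255), with Benjamini-Hochberg adjustment over all 13123 genes and a threshold of 0.05; DESeq2 1.42.0 was the alternative tool. Each SE was taken as the fitted log2 value over the root of its F statistic. Single-library log2 changes use CPM with 0.5 added. Their 95% intervals are exact binomial intervals of the scaled count ratio without the 0.5, so at low counts the change is not at their centre. Lengths and overlaps come from GENCODE, and promoters from RefSeq.

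The members and lists were chosen with earlier results of these data known, so counts over them are descriptions and the patterns are no independent evidence. Named genes are the members, CCT2, up to 3 genes per list with the smallest p among those with a mean of at least 10 CPM, and the 2 nearest genes of each of 2 members; others are said to be picked after their values were seen, and a few genes that the rule names are not reported here. Alternatives tried were no TMM, DESeq2's size factors, other count filters, no table term, a replicate block, robust estimation, each library left out, the first table alone, a pseudocount of 5 and union exon lengths.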

Additional observations from a re-analysis of the deposited data

Results flagged for a closer look

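FOSL2 and IER3 changed in opposite directions in the 2 tables, with both shCCT2 1 and shCCT2 2 on one side of shCtrl 1 and shCCT2 3 on the other side of shCtrl 2, a pattern of 22.6% of all genes. The difference between the tables (second minus first) was -1.46 log2 units for FOSL2, with an adjusted p of 0.164 in edgeR's quasi-likelihood test and of 0.0325 in DESeq2. For IER3 it was 1.31 log2 units, with an adjusted p of 0.159 in edgeR's test and of 0.0349 in DESeq2. Neither passed in edgeR with TMM scaling; without it FOSL2 passed, at -1.54 with an adjusted p of 0.0268 in edgeR, where that fit called 4.38% of all genes.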

How the results depend on the processing

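Neither scaling changed the sign of a member, and all union exon shares moved by less than their spread. With DESeq2, 2 genes were called higher and 11 lower, none of them a member, and with each library left out in turn edgeR called 0 to 2 lower, the 2 without shCCT2 2; no member passed under any of these. Without the table term FOS turned to 0.18. The labels' numbers did not pair the libraries (correlation of same-numbered deviations 0.044, of same-table deviations 0.734). With the replicate block in place of the table, FOS turned to 0.21, FGFBP1 to 0.70 and SCEL to -0.33, the other immediate early genes had a median of -0.43 and the genes with AP-1 sites of -0.054; the block called no gene. The first table alone gave 0.092 for FOS, 0.44 for FOSL2, 0.07 for JUN, -0.34 for JUNB, 0.48 for DUSP1, 0.003 for CREB5 and -0.66 for SCEL, and medians of -0.081 for bZIP partners and -0.036 for genes with AP-1 sites, whose median was 0.084 with at least 10 counts in every library. Leaving out 1 library at a time gave FOS -1.34 to 0.10, FOSL2 -0.99 to 0.44, JUN -0.34 to 0.07, JUNB -0.35 to 0.79, EGR1 -0.029 to 2.40, IER3 -0.64 to 0.70, DUSP1 -1.17 to 0.48, CREB5 -2.36 to 0.004 and SCEL -0.67 to 1.78. Among these, the fits without shCCT2 3 and without shCtrl 2 repeat the first-table contrast by design and are no separate check of it. Likewise, the fit without shCtrl 1 repeats the contrast of shCCT2 3 with shCtrl 2. The medians then ran from -0.33 to -0.007 for the other immediate early genes, -0.64 to -0.082 for bZIP partners, -0.032 to 0.24 for regulators, -0.07 to 0.21 for the MAP kinase cascade, -0.50 to 1.21 for phosphatases, 0.056 to 0.50 for AU-rich element binders, -0.036 to 0.77 for genes with AP-1 sites and -0.55 to 0.08 for the members. The 1.21 for phosphatases sets shCCT2 3 against shCtrl 2 alone, where the list's median single-library change was 0.15. That 0.15 is the value of DUSP2, at 1 count against 0 with 0.5 CPM added. Of the interactions, FOSL1 passed at 1.72 without TMM (adjusted p = 0.0136, edgeR) and 1.78 in DESeq2, FOSL2 at -1.54 (adjusted p = 0.0268, edgeR) and -1.48, and IER3 at 1.30 in DESeq2; these tests called 4.38% (edgeR without TMM) and 2.0% (DESeq2) of all genes, and 0.0% with TMM in edgeR. FOSB in shCCT2 3 stood at -0.69 with a pseudocount of 5, by construction, since it has few counts. The cause of the other shifts was not tested. Over these alternatives the adjusted p of FOSL1 ran from 0.0783 to 1.0 and that of EGR1 from 0.357 to 1.0. FOSB rests on 15 to 91 counts per library.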
